A study of Mus musculus with 9 samples.

Results

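The genes described here are the 33 DNA replication genes that the deposited table of 17730 genes annotates to the KEGG pathway mmu03030, chosen by a mean level over the 6 libraries used that reached 1 FPKM. FPKM counts the fragments on each kilobase of a transcript, relative to all mapped fragments of its library. The pathway had 35 rows in the table, and 2 of them, Dna2 and Pole2, had a lower mean. The rule used the mean level and not the difference between the groups. The libraries came from primary astrocytes of newborn wild-type C57BL/6 mice kept in medium taken from stimulated microglia. For the group LPS-MCM the stimulus of the microglia was LPS (lipopolysaccharide, from bacterial cell walls), and for the group Hemin-MCM it was hemin, an iron-containing product of hemoglobin. In these group names MCM stands for microglia-conditioned medium, whereas the Mcm genes encode the minichromosome maintenance helicase. Each group had 3 libraries, which the labels give as replicates with no word on separate cultures or animals. The p-values thus rest on a spread between libraries that may be technical. The third group of the series, given medium of resting microglia, was not analysed here, so the data do not show in which medium a gene's level moved.

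A eukaryotic cell copies its DNA once per division. The helicase of the subunits Mcm2 to Mcm7 is loaded on origins in G1 phase and unwinds the double strand in S phase. Polymerase alpha and its primase lay down RNA-DNA primers, and the clamp loader of the Rfc subunits places the ring-shaped clamp PCNA there. Polymerase epsilon and polymerase delta then extend the leading and the lagging strand, while replication protein A (RPA) covers single-stranded DNA. The flap endonuclease Fen1, the RNase H enzymes and the ligase Lig1 remove the primers and join the fragments. Many of these genes are transcribed under control of E2F factors when a cell enters S phase, and cultured astrocytes of newborn rodents can divide.

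A library's values summed to between 348382.7 and 359093.4 FPKM, and the steps between low values put the depth at an estimated 34900000 to 38350000 fragments. At that depth 1 fragment on a transcript of 1 kb is worth 0.0261 to 0.0287 FPKM. The 10 astrocyte markers were all present, at a summed level of 1288 to 1330 FPKM with LPS-MCM against 1596 to 1685 with Hemin-MCM, with 6 lower and 1 higher in LPS-MCM. The 16 markers of microglia and macrophages were present too, with sums from 1845 to 2122 FPKM in the LPS-MCM libraries and from 3958 to 4279 in the Hemin-MCM libraries. Lyz2 alone gave 1427 to 1637 FPKM and 3145 to 3435 FPKM of these sums. Of these markers 14 were lower in LPS-MCM and none was higher, and no marker of either list was at 0 in all libraries. Sums of ependymal markers were 146 to 158 FPKM and 206 to 213 FPKM in LPS-MCM and Hemin-MCM, with 4 of 4 tested genes lower. Foxj1 alone gave 123 to 131 FPKM and 163 to 174 FPKM of them. Sums of the oligodendrocyte lineage were 68.7 to 75.4 FPKM and 80.6 to 84.7 FPKM, with 1 of 6 lower. Neuron markers summed to 53.2 to 58.1 FPKM and 64.9 to 70.1 FPKM, with 2 of 3 tested genes lower, and Stmn2 alone gave 37.5 to 42.2 and 46.8 to 51.1 FPKM. Of the 7 endothelial and mural markers only Pdgfrb was tested, and it was not called. Beside these counts, 13.8% of all genes tested were lower and 6.72% higher in LPS-MCM, by the test given below. Such sums are no measure of the share of a cell type. In the fibroblast and meningeal list 2 of 6 genes were higher in LPS-MCM and none was called lower. Lum was at 8.33 ± 0.973 and 3.02 ± 0.828 FPKM (1.23 ± 0.13) and Dcn at 3.69 ± 0.571 and 2.10 ± 0.313 FPKM (0.60 ± 0.11). Col1a1 (-0.59 ± 0.26), Col1a2 (-0.61 ± 0.24) and Col3a1 (-0.47 ± 0.24) leaned lower but did not pass. For each of these collagen genes the second Hemin-MCM library was far above the others, with Col1a1 at 8.86 FPKM beside 3.39 and 3.29 in Hemin-MCM. The list's median difference was -0.26. The part of these cells in the differences of replication genes was not tested. In bulk RNA, fewer dividing cells and less RNA per dividing cell cannot be told apart.

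Replication genes were lower in LPS-MCM or did not pass the test, and none was higher. Of the 33 genes, 17 passed limma's test at an adjusted p of 0.05, the 17 of them lower in LPS-MCM. Over all 11688 genes tested, 13.8% passed as lower and 6.72% as higher. Pole met the minimum only through its Hemin-MCM libraries, and without it 16 of 32 genes were lower. The median difference of the 33 genes was -0.26 on the log2(FPKM + 1) scale, LPS-MCM minus Hemin-MCM, beside -0.04 for all genes tested. The groups were fully apart for 21 of the 33 genes, the 21 of them lower in LPS-MCM, whereas 24.7% of all genes tested showed that order and 37.5% did not overlap in either direction. The summed level of the 33 genes was 327.4 to 334.7 FPKM with LPS-MCM against 393.1 to 413.9 with Hemin-MCM. Every difference below is on the log2(FPKM + 1) scale with its standard error (SE), and adjusted p-values are limma's after Benjamini-Hochberg adjustment over all genes tested. The pseudocount of 1 makes differences of genes at a few FPKM smaller than their ratio of means.

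**Figure D1:**
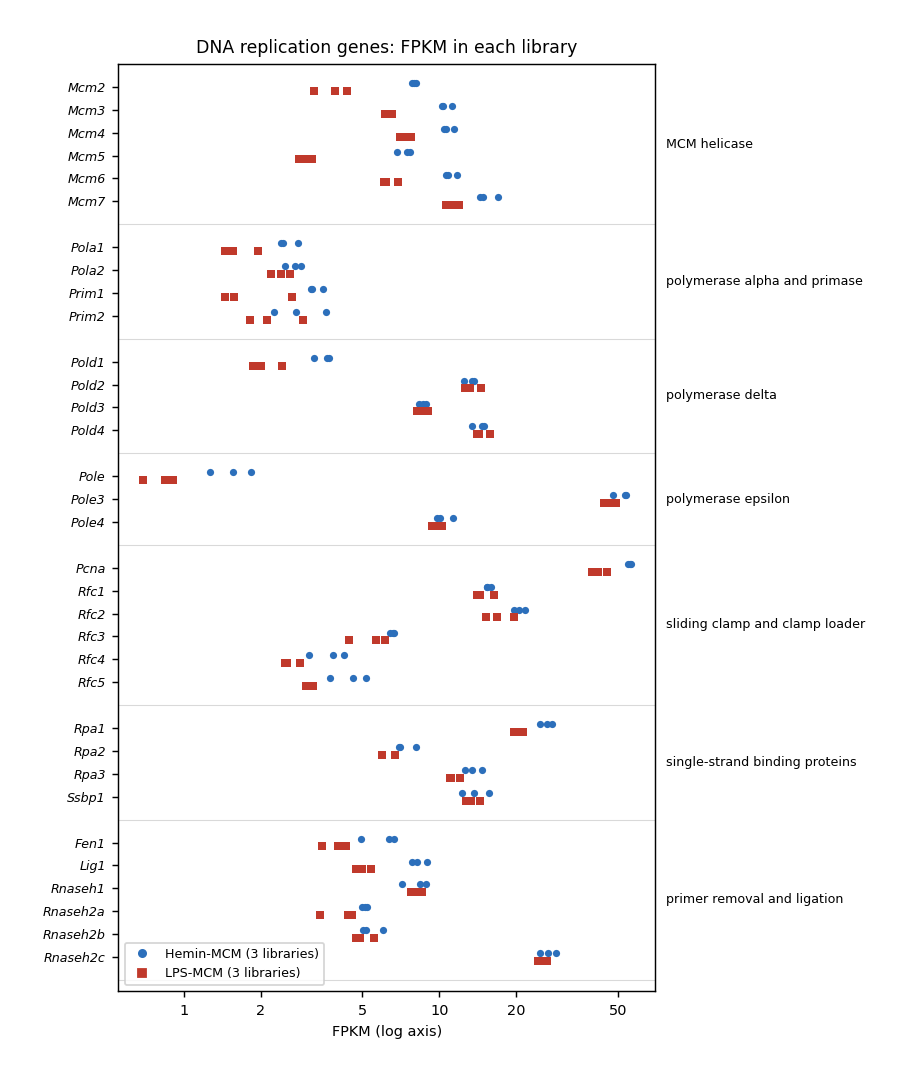
FPKM of the 33 replication genes in each of the 6 libraries on a log axis, with 3 Hemin-MCM libraries as blue circles and 3 LPS-MCM libraries as red squares, ordered by complex. The 6 helicase genes separate fully between the groups, while Pold2, Pold3 and Pold4 overlap.

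The helicase genes gave the most uniform result, with 6 of 6 lower in LPS-MCM. Their summed level was 37.3 to 38.9 FPKM in the LPS-MCM libraries and 60.9 to 65.3 in the Hemin-MCM libraries. Mcm5 (chromosome 8, 75109468 to 75128439 on GRCm38.p6, as for all positions here) was at 2.82, 3.18 and 2.99 FPKM in LPS-MCM and at 7.45, 6.81 and 7.70 in Hemin-MCM. The groups lie far apart, and the LPS-MCM mean was 0.410 times that of Hemin-MCM (difference -1.06 ± 0.07, SE, limma adjusted p = 6.80e-06). Among the 33 genes, Mcm5 alone also passed limma's test against a change of 1.5-fold (adjusted p = 0.00441), which 0.556% of all genes passed as lower.

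Mcm2, a helicase subunit next to Mcm5 in the ring (chromosome 6, 88883474 to 88898780), was at 3.92, 4.34 and 3.24 FPKM in LPS-MCM and at 7.93, 7.79 and 8.10 in Hemin-MCM. Its LPS-MCM mean was 0.483 times that of Hemin-MCM (-0.89 ± 0.09, limma adjusted p = 6.33e-05). The highest LPS-MCM library of Mcm2 was thus far under the lowest Hemin-MCM library. Mcm6, part of the catalytic core with Mcm4 and Mcm7 (chromosome 1, 128331575 to 128359705), was at 6.17, 6.88 and 6.07 FPKM in LPS-MCM and at 11.7, 10.6 and 10.8 in Hemin-MCM (-0.71 ± 0.07). Mcm3, which pairs with Mcm5 during loading (chromosome 1, 20802966 to 20820312), was at 6.19, 6.11 and 6.52 FPKM and at 10.3, 10.2 and 11.3 (-0.67 ± 0.06). Both genes kept the groups apart, with limma adjusted p of 6.11e-05 for Mcm6 and 5.01e-05 for Mcm3.

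Mcm4 (chromosome 16, 15623897 to 15637400) was at 7.03, 7.76 and 7.21 FPKM in LPS-MCM and at 11.4, 10.6 and 10.5 in Hemin-MCM (-0.51 ± 0.06, limma adjusted p = 0.000315). Mcm7 (chromosome 5, 138164583 to 138172111) was at 11.2, 10.6 and 11.9 FPKM and at 14.4, 14.8 and 17.0 (-0.42 ± 0.07, limma adjusted p = 0.00223). Mcm7 was the most abundant helicase gene in every library and had the smallest difference of the 6, although its groups did not overlap either. The ratio of these 2 transcripts, the helicase genes with the largest and the smallest difference, was chosen after the values were seen and is given as a description. Mcm5 was at 0.268 ± 0.0279 of the Mcm7 level with LPS-MCM against 0.477 ± 0.0348 with Hemin-MCM (SD, 3 libraries per group).

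**Figure D2:**
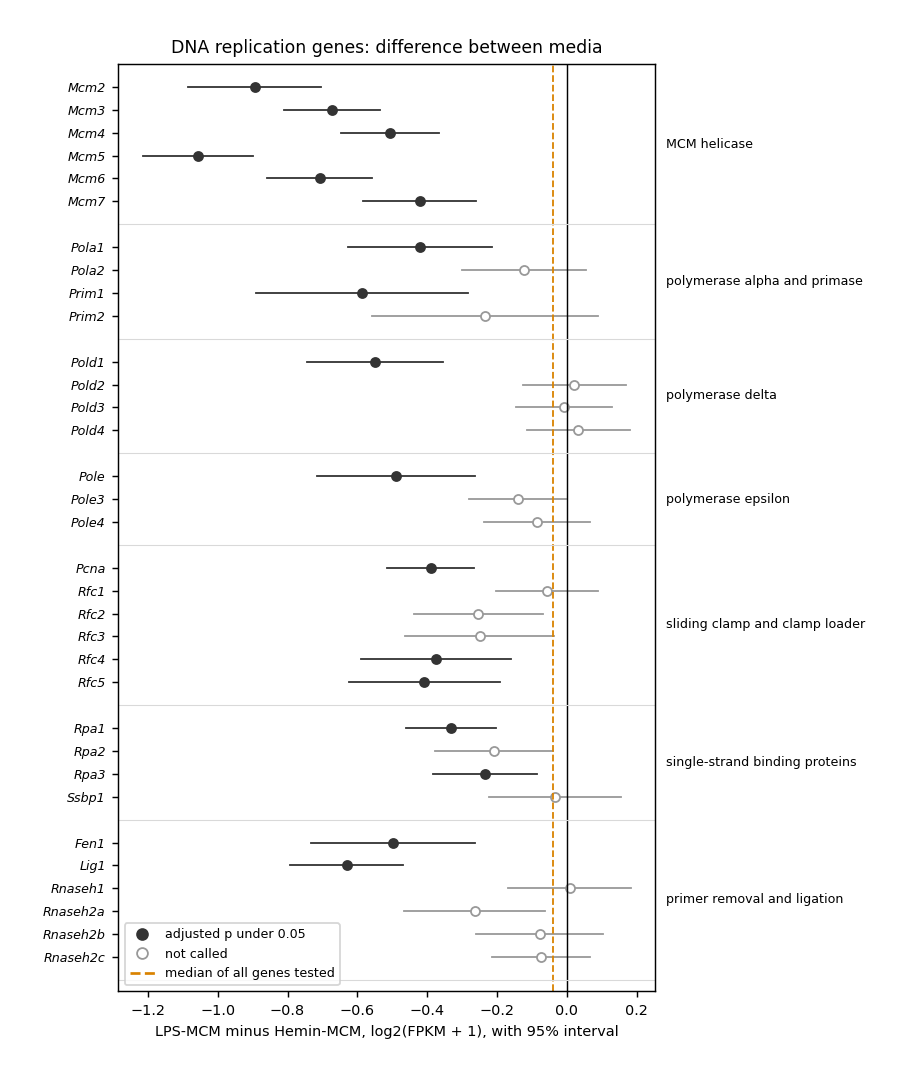
Difference of each of the 33 genes, LPS-MCM minus Hemin-MCM on the log2(FPKM + 1) scale, with its 95% interval; filled points passed limma's adjusted p of 0.05, and the dashed line is the median of all genes tested (-0.04). The 17 filled points all lie left of 0, from -1.06 for Mcm5 to -0.23 for Rpa3.

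Of the polymerase and primase genes that reached the minimum level, the catalytic subunits Pola1, Prim1, Pold1 and Pole were lower. The other subunits that reached it did not pass. The accessory subunit Pole2 was under the minimum, and it was lower in limma's fit with no filter on low values, as given below. Pola1, the catalytic subunit of polymerase alpha (chromosome X, 93304766 to 93632387), was at 1.45, 1.55 and 1.96 FPKM in LPS-MCM and at 2.45, 2.80 and 2.39 in Hemin-MCM (-0.42 ± 0.09, limma adjusted p = 0.00907). Prim1, the catalytic primase subunit (chromosome 10, 128015215 to 128030030), was at 1.45, 1.57 and 2.65 FPKM in LPS-MCM and at 3.50, 3.14 and 3.17 in Hemin-MCM. The third LPS-MCM library of Prim1 lay between the other two and the Hemin-MCM libraries (-0.59 ± 0.14, limma adjusted p = 0.0122, and 0.0574 without the filter on low values). The other members of this complex, Pola2 (-0.12, 95% interval -0.30 to 0.05) and the large primase subunit gene Prim2 (-0.24, 95% interval -0.56 to 0.09), did not pass, and their groups overlapped.

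Pold1, the catalytic subunit of polymerase delta (chromosome 7, 44532744 to 44548815), was at 2.01, 2.42 and 1.86 FPKM in LPS-MCM and at 3.24, 3.69 and 3.64 in Hemin-MCM. The groups did not overlap (-0.55 ± 0.09, limma adjusted p = 0.00149). The accessory subunits Pold2, Pold3 and Pold4 were more abundant than Pold1 in every library and did not pass, with 95% intervals of -0.13 to 0.17, -0.15 to 0.13 and -0.11 to 0.18. Their means were 13.5 ± 1.02 and 13.2 ± 0.612 FPKM for Pold2, in LPS-MCM and Hemin-MCM. For Pold3 they were 8.55 ± 0.473 and 8.60 ± 0.270 FPKM, and for Pold4 14.7 ± 0.965 and 14.3 ± 0.846 FPKM (SD, n = 3 each). These 3 genes therefore lay near the same level in both media.

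Pole, the catalytic subunit of polymerase epsilon (chromosome 5, 110286319 to 110337468), was at 0.909, 0.691 and 0.843 FPKM in LPS-MCM and at 1.56, 1.84 and 1.26 in Hemin-MCM (-0.49 ± 0.10, limma adjusted p = 0.00678). Its mean over the 6 libraries, 1.18 FPKM, was the one just above the minimum, and it reached the minimum through the Hemin-MCM libraries. Just below the minimum were Dna2, a helicase and nuclease that trims long flaps, with a mean of 0.947 FPKM, and Pole2, the second subunit of polymerase epsilon, with 0.839 FPKM. Dna2 was at 0.689, 0.522 and 0.631 FPKM in LPS-MCM and at 1.42, 1.19 and 1.23 in Hemin-MCM. Pole2 was at 0.536, 0.523 and 0.668 FPKM in LPS-MCM and at 1.04, 1.16 and 1.10 in Hemin-MCM. For both genes every LPS-MCM library was under every Hemin-MCM library. In limma's fit with no filter on low values, Dna2 (-0.50 ± 0.06, adjusted p = 0.00421) and Pole2 (-0.42 ± 0.05, adjusted p = 0.00433) were lower. The small histone-fold subunits of polymerase epsilon did not pass, with Pole3 at 46.6 ± 2.58 and 51.5 ± 3.32 FPKM (-0.14 ± 0.06, limma adjusted p = 0.144) and Pole4 at 9.76 ± 0.472 and 10.4 ± 0.813 FPKM.

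For genes that reached the minimum, the contrast between catalytic and accessory subunits is shown within libraries as ratios. They set genes called lower over other subunits and were chosen after the values were seen, so they describe the same contrast and carry no test. Pole2, the accessory subunit that was lower in the fit with no filter, is not among them. Pold1 was at 0.156 ± 0.0246 of the Pold2 level in LPS-MCM and 0.267 ± 0.0293 in Hemin-MCM. Its ratio to Pold3 was 0.247 ± 0.0466 and 0.410 ± 0.0403, and its ratio to Pold4 was 0.143 ± 0.0230 and 0.246 ± 0.0255. Pole was at 0.0174 ± 0.00152 of the Pole3 level and 0.0305 ± 0.00760, and at 0.0833 ± 0.0101 of the Pole4 level and 0.149 ± 0.0286 (SD, n = 3 each). In these 5 ratios and in Pola1 to Pola2 (0.688 ± 0.0572 and 0.944 ± 0.0381) the groups did not overlap. Pola1 to Prim1 (0.912 ± 0.149 and 0.783 ± 0.0985) and Pola1 to Prim2 (0.735 ± 0.0664 and 0.931 ± 0.284) overlapped between the groups.

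**Figure D3:**
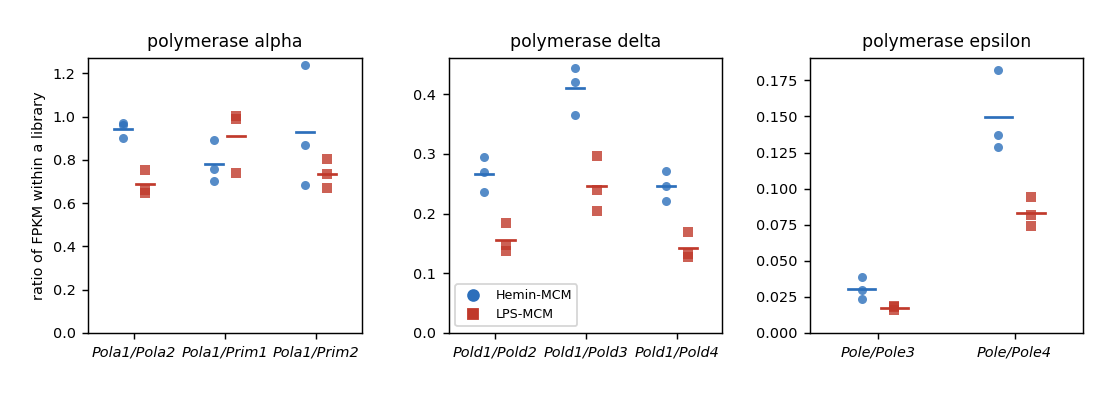
FPKM of the catalytic polymerase subunit divided by that of another subunit of the same polymerase, in each of the 3 Hemin-MCM (blue circles) and 3 LPS-MCM libraries (red squares), with the group mean as a bar; the axes differ in scale. The ratios of Pold1 and Pole shown are lower in all LPS-MCM libraries, while Pola1 to Prim1 and Pola1 to Prim2 overlap. Pole to Pole2 is not shown.

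Pcna, whose protein forms the sliding clamp (chromosome 2, 132249286 to 132253180), was among the most abundant of the 33 genes. It was at 42.0, 45.3 and 39.6 FPKM in LPS-MCM and at 56.2, 54.6 and 56.0 in Hemin-MCM, so the groups did not overlap (-0.39 ± 0.06, limma adjusted p = 0.000789). Of the 5 clamp loader genes, 2 were lower. Rfc5 (chromosome 5, 117379145 to 117389023) was at 3.00, 3.22 and 3.15 FPKM and at 3.72, 5.17 and 4.61 (-0.41 ± 0.10, limma adjusted p = 0.0136). Rfc4 (chromosome 16, 23113948 to 23127730) was at 2.86, 2.48 and 2.55 FPKM and at 4.23, 3.10 and 3.84 (-0.37 ± 0.10, limma adjusted p = 0.0210). Neither call held in every fit, though both genes stayed below 0. Rfc5 lost its call when the second (adjusted p = 0.0523) or the third library of Hemin-MCM was left out (0.0539), and with no filter on low values (0.0527). Its difference was -0.32 and -0.39 without those libraries. Rfc4 lost it when the second (0.0613) or the third library of LPS-MCM (0.0525) or the first (0.0777) or the third library of Hemin-MCM (0.0788) was left out, with no filter (0.0668) and under quantile normalization (0.0810). Its difference stayed between -0.36 and -0.29 in those fits with a library left out or quantile normalization.

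The large clamp loader subunit gene Rfc1 did not pass (-0.06, 95% interval -0.20 to 0.09). Rfc2 (-0.25 ± 0.08, limma adjusted p = 0.0564) and Rfc3 (-0.25 ± 0.10, limma adjusted p = 0.0986) did not pass either, although their groups did not overlap. Without the second LPS-MCM library, both were called lower, with limma adjusted p of 0.00807 for Rfc2 and 0.0354 for Rfc3.

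Of the 4 single-strand binding proteins, 2 were lower, both of them RPA subunits. Rpa1, the large DNA-binding subunit of RPA (chromosome 11, 75300259 to 75348454), was at 21.1, 21.2 and 19.6 FPKM in LPS-MCM and at 27.6, 26.3 and 24.8 in Hemin-MCM (-0.33 ± 0.06, limma adjusted p = 0.0025). Rpa3, the small subunit (chromosome 6, 8255936 to 8259141), was at 11.1, 12.1 and 11.0 FPKM and at 14.7, 12.7 and 13.4, with groups that came close to each other (-0.23 ± 0.07, limma adjusted p = 0.0334). The call of Rpa3 was lost when the first (adjusted p = 0.0979) or the third library of LPS-MCM (0.0737) or the first (0.117) or the third library of Hemin-MCM (0.0891) was left out. Median-of-ratios scaling (0.0977), quantile normalization (0.0747) and the fit with no filter (0.0666) also ended it. Rpa2, the middle subunit, did not pass (-0.21 ± 0.08, limma adjusted p = 0.0838), though its LPS-MCM libraries were all below its Hemin-MCM libraries. Ssbp1, the single-strand binding protein of mitochondria, did not pass and its groups overlapped (-0.03, 95% interval -0.22 to 0.16).

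Among the genes of primer removal and ligation, the ligase and the flap endonuclease were lower. Lig1, which seals nicks between the fragments of the lagging strand (chromosome 7, 13277175 to 13311426), was at 4.71, 4.97 and 5.41 FPKM in LPS-MCM and at 8.98, 7.83 and 8.19 in Hemin-MCM (-0.63 ± 0.07, limma adjusted p = 0.000194). Fen1, which cuts displaced flaps (chromosome 19, 10199132 to 10204393), was at 4.01, 3.48 and 4.32 FPKM and at 6.68, 4.94 and 6.37 (-0.50 ± 0.11, limma adjusted p = 0.00739). Neither gene's groups overlapped. The RNase H genes did not pass, with differences of 0.01 for Rnaseh1, -0.07 for Rnaseh2c, -0.08 for Rnaseh2b and -0.26 for Rnaseh2a, the catalytic subunit of RNase H2. Rnaseh2a had groups that did not overlap and was called when library 1 of LPS-MCM was left out (limma adjusted p = 0.0479, against 0.0675 with all libraries).

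The 33 genes differ in what else they are annotated to. Beside replication, 19 of them are annotated to nucleotide excision, mismatch or base excision repair or to homologous recombination, and 9 of these 19 were lower. Of the 14 in none of these repair pathways, 8 were lower, including the 6 helicase genes. The 7 genes that the table also lists under the cell cycle pathway, the helicase genes and Pcna, were all lower. Levels ran from 1.18 FPKM for Pole to 49.1 for Pole3. Genes with lower levels tended to have lower ratios of LPS-MCM to Hemin-MCM (Spearman's rho 0.504 between mean level and ratio across the 33 genes). Not all did, as Pola2 and Prim2, at means of 2.55 and 2.58 FPKM, had ratios of 0.888 and 0.797. The relation was not computed over all genes tested. The 33 genes share the same 6 libraries and are no independent replicates. The 17 lower genes had a median level of 5.89 FPKM and the 16 others 9.33 FPKM.

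Promoter sequence is shown because E2F sites are known in promoters of replication genes. A role of E2F factors in the differences between the groups was not tested. RefSeq promoter windows on GRCm38.p6, from 250 bases before to 50 bases after a transcription start, were found for 27 of the 33 genes. Mcm4, Pole, Prim2, Rfc2, Rnaseh1 and Rnaseh2b had no entry. The windows were searched on both strands for the E2F words TTTCCCGC, TTTGGCGC, TTTCGCGC and TTTGCCGC, which can overlap each other on opposite strands, and a gene counted once if any of its windows held a word. The promoter of Mcm5 (chr8:75109259-75109467, plus strand) and that of Mcm6 (chr1:128359706-128359955, minus strand) are printed from 5′ to 3′ up to the first annotated transcript start, with E2F words in capitals.
Mcm5: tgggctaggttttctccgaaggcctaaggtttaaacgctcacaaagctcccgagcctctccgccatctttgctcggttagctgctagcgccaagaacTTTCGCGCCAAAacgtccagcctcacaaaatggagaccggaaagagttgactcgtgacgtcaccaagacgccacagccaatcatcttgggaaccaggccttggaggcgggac
Mcm6: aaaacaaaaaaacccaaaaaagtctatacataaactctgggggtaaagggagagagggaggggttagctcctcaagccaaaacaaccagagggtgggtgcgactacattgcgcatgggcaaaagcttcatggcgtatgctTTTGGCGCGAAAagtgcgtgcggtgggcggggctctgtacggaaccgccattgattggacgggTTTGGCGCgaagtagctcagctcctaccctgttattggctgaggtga

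In both promoters a pair of words overlaps on opposite strands, at 75109356 to 75109367 in Mcm5 and at 128359804 to 128359815 in Mcm6, and Mcm6 holds a further word at 128359745 to 128359752. The matches of the other genes are shown as short sites in the gene's orientation, also with the words in capitals and with bases counted from the transcription start of the RefSeq window that holds the site, to compare genes that were lower with genes that did not pass.
Mcm3 (lower, chr1:20820266-20820294, minus strand, bases 20 to 46 after the start): gGCGGGAAAacttgggaagtTTTGGCGCc
Mcm7 (lower, chr5:138172036-138172053, minus strand, bases -165 to -158): gaaccGCGGGAAAcaggg
Mcm7 (lower, chr5:138171855-138171872, minus strand, bases 17 to 24): cgacgTTTCGCGCcaatt
Pola1 (lower, chrX:93632281-93632298, minus strand, bases -138 to -131): acaggGCGCCAAAtgcac
Pold1 (lower, chr7:44548766-44548781, minus strand, bases 40 to 47): ttgtgGCGGGAAAagc
Lig1 (lower, chr7:13278847-13278864, plus strand, bases 27 to 34): agtgcGCGCGAAAtctgt
Pold3 (did not pass, chr7:100121473-100121490, minus strand, bases 18 to 25): agctgTTTCCCGCcggcg
Pole4 (did not pass, chr6:82652896-82652913, minus strand, bases -43 to -36): ccggcGCGGGAAAggggc
Rfc3 (did not pass, chr5:151651196-151651223, minus strand, bases -10 to 8): cacgcTTTCGCGCtcGCGGGAAAactct

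An E2F word was present in 10 of the 27 genes with a window (37.0%). The share was 4.77% of the 9415 tested genes that have a window and 2.26% of all 32851 windows in the table. Of the helicase genes, 4 of 5 held a word, namely Mcm3, Mcm5, Mcm6 and Mcm7, and Mcm2 held none although it had the second-largest difference. Of the genes called lower, 7 of 15 with a window held a word, and of those not called 3 of 12. Over all genes called lower in LPS-MCM the share was 5.49% of 1274. The CCAAT box, spelled CCAAT, was found in 16 of the 27 genes and in 43.25% of the tested genes. The cell cycle element TTTGAA was found in 4 of 27 (14.8%, beside 13.8%) and the GC box GGGCGG in 19 of 27 (70.4%, beside 69.9%). A match is a run of letters and not a measured binding site.

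Genes that act with the replication machinery but lie outside the pathway were taken from 8 lists, with 92 genes tested, of which 30 were lower and 1 was higher, beside 13.8% lower and 6.72% higher over all genes tested. The 30 include Cdc45 and Clspn, which met the minimum only through their Hemin-MCM libraries. The lists were chosen with earlier results of these data known. Of 18 tested genes of origin licensing and firing, 7 were lower and none was higher. Among the 7, Cdc45 met the minimum only through Hemin-MCM (0.762 ± 0.0599 FPKM with LPS-MCM and 1.46 ± 0.165 with Hemin-MCM). Cdt1, which loads the helicase on origins, averaged 1.54 ± 0.226 FPKM with LPS-MCM against 3.18 ± 0.417 with Hemin-MCM (-0.72 ± 0.10, limma adjusted p = 0.000636). The inhibitor of Cdt1, Gmnn, was lower as well (-0.58 ± 0.10), as were Gins2, a part of the active helicase (-0.56 ± 0.07), and Topbp1, which takes part in origin firing (-0.40 ± 0.06). Gins1, also among the 7, lost its call under quantile normalization (limma adjusted p = 0.101) and without the third Hemin-MCM library (0.0820). The origin recognition genes Orc2, Orc3, Orc4, Orc5 and Orc6 did not pass, with differences from -0.10 to 0.05.

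Of 10 tested genes of deoxynucleotide supply, 6 were lower and none was higher. The ribonucleotide reductase genes Rrm2 (6.20 ± 0.408 and 10.6 ± 0.714 FPKM, -0.69 ± 0.07, limma adjusted p = 8.94e-05) and Rrm1 (-0.41 ± 0.06) were among them, with the thymidine kinase gene Tk1 (-0.76 ± 0.11) and the deoxycytidine kinase gene Dck (-0.54 ± 0.08). Of 7 tested genes of chromatin assembly at the fork, 4 were lower, namely Uhrf1, which guides DNA methylation to new strands (-0.71 ± 0.07, limma adjusted p = 9.34e-05), the histone chaperone genes Chaf1a (-0.42 ± 0.07) and Chaf1b (-0.43 ± 0.12), and Asf1b (-0.62 ± 0.14). Chaf1b lost its call when the first (limma adjusted p = 0.0793) or the third library of LPS-MCM (0.0820) or the second of Hemin-MCM (0.0904) was left out, with no filter (0.0832) and under quantile normalization (0.0893). Asf1b lost it without the filter (0.0508). Of 8 tested genes of fork protection and the checkpoint, 1 was lower, a share no larger than that over all genes. It was Clspn, an adaptor of the checkpoint kinase (0.888 ± 0.216 and 1.70 ± 0.168 FPKM, -0.52 ± 0.10), which met the minimum only through Hemin-MCM. Among the genes of this list under the minimum, Timeless, Chek1, Dscc1 and Chtf18 were lower and Atad5 did not pass in limma's fit with no filter on low values, with differences from -0.41 to -0.17.

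Mitotic genes were lower in 11 of 18 cases and higher in none. Top2a, which untangles sister chromatids, was at 10.7 ± 0.123 and 16.4 ± 0.485 FPKM (-0.57 ± 0.05, limma adjusted p = 5.01e-05), and the kinase gene Aurkb (-0.58 ± 0.08), the proliferation marker Mki67 (-0.54 ± 0.08) and the cyclin gene Ccna2 (-0.57 ± 0.10) were lower too. Of 14 tested E2F factors, partners and pocket proteins, 1 was lower, again no larger a share than over all genes. It was E2f1, averaging 3.12 ± 0.215 FPKM with LPS-MCM against 5.18 ± 0.360 with Hemin-MCM (-0.58 ± 0.07, limma adjusted p = 0.000388). In the fit with no filter on low values, E2f2, E2f7 and E2f8, which were under the minimum, were lower as well (limma adjusted p = 0.0489, 0.0336 and 0.0385). None of the 10 tested repair and translesion polymerases was lower, and Polm, a polymerase of end joining, was higher (0.36 ± 0.09, limma adjusted p = 0.0146). Polm lost its call without the second LPS-MCM library (0.0510), without the first Hemin-MCM library (0.0535) and without the filter (0.0509). None of the 7 genes of mitochondrial DNA replication passed.

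**Figure D4:**
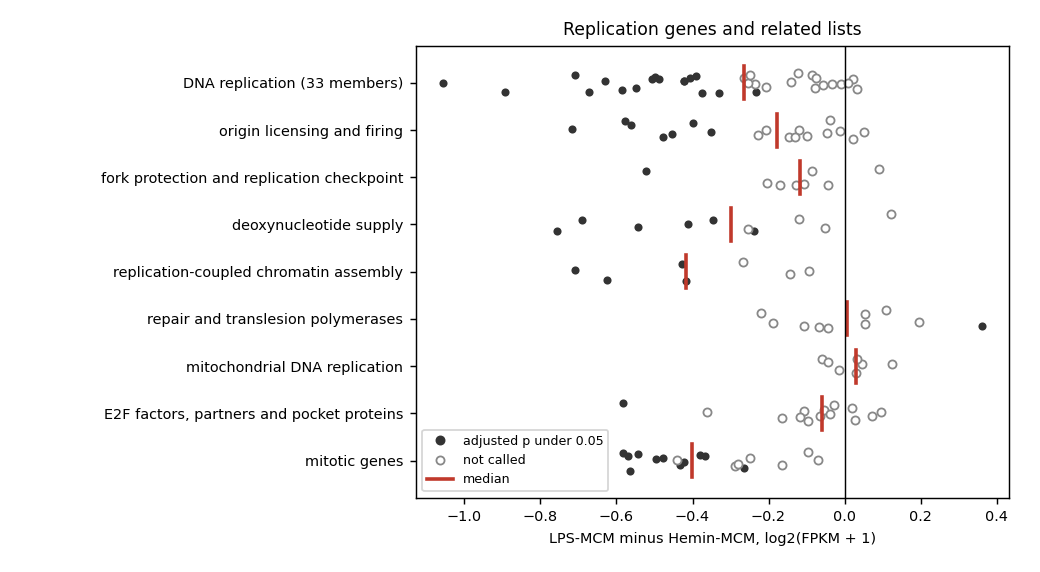
Differences of the 33 replication genes and of the tested genes of 8 related lists, LPS-MCM minus Hemin-MCM on the log2(FPKM + 1) scale; each point is a gene, filled where limma's adjusted p was under 0.05, and the red bar is the list's median. Medians range from -0.42 for chromatin assembly to 0.03 for mitochondrial DNA replication.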

How the data were processed

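RNA of astrocyte cultures was measured with a stranded kit that selects polyadenylated RNA, per the labels' protocols. The authors deposited gene-level FPKM values. Per the submitters' processing notes, the build was mm10 and DESeq was among the tools. Aligner, counter and annotation were not given in the sources used here. Each column was tied to its sample through treatment and number. A further 3 value columns match no sample title and were not used.

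FPKM are not counts, so log2(FPKM + 1) of the 11688 genes whose mean over 6 libraries reached 1 FPKM was tested with limma 3.58.1 in R 4.3.3 (mean-variance trend, 1 mean per group, two-sided, Benjamini-Hochberg). The fit was tested on simulated data. Values are given in every library for the helicase genes, Pcna and up to 2 called genes of each other complex, and up to 4 called genes per related list are named. Other named genes, the subunit ratios and the promoter words were chosen after values were seen. The members and lists were chosen with earlier results of these data known.

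Depth was estimated from genes with 1 transcript in GENCODE vM21 by finding the fragment number at which low values are nearest to whole fragments. Of 402 to 456 such values per library, 49.2 to 50.8% lay within 0.1 of a whole number, where 20% would if spread evenly. Coordinates and promoters are RefSeq's on GRCm38.p6, the assembly that mm10 represents, matched by gene ID. Python 3.11.15 was used for promoters and figures. Alternatives changed the pseudocount, filter, scaling, variance model, null hypothesis, replicate block and the libraries included.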

Additional observations from a re-analysis of the deposited data

How the results depend on the processing

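Under 16 alternatives no called gene among the 33 changed direction, and 13 of the 17 called genes kept their call under every alternative except the test against 1.5-fold; Prim1, Rpa3, Rfc4 and Rfc5 did not. The number of the 33 genes called lower was 13 without the low-value filter, 16 under median-of-ratios scaling, 15 under quantile normalization and 14 to 18 when 1 library was left out. None was called higher under any of them. Against a change of 1.5-fold, 1 of the 33 genes, none of the related genes in either direction (0 and 0), and 65 lower and 72 higher of all genes were called, fewer by construction of that test.

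Of all genes, 1614 were lower and 786 higher, so that 32.75% of called genes were higher; this share was 49.84% under median-of-ratios scaling and 44.96% under quantile normalization, where the called genes divided into 1131 lower and 1124 higher, and 1218 lower and 995 higher. Leaving out 1 library gave 1058 to 1652 lower and 581 to 763 higher genes, with 1058 lower without the third Hemin-MCM library. In the related lists 27 to 32 genes were lower and 0 to 1 higher with 1 library left out. Of the 31 called genes of these lists, 22 kept their call under every alternative except the test against 1.5-fold, and 9 did not. Without the filter, Dut, Dtymk, Chaf1b, Asf1b, Aurka, Nusap1 and Ube2c lost their call as lower. Quantile normalization ended that of Gins1, Dut, Chaf1b, Aurka and Nusap1, and median-of-ratios scaling that of Dtymk and Nusap1. The 1 higher gene became 0 without the filter and 2 under median-of-ratios scaling and under quantile normalization; the cause was not tested.

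No pairing of the libraries by replicate number was visible. Deviations from the group means correlated at 0.0796, 0.107 and -0.106 for numbers 1, 2 and 3, and not every library correlated best with its own number. With 3 libraries per group these values cannot exclude a shared culture or preparation, on which the labels are silent. With the replicate number as a block, 16 of the 33 genes were lower, with Rpa3 at an adjusted p of 0.0511, and 1578 genes were lower and 752 higher in all. A value of 1 FPKM rests on fewer fragments the shorter the transcript. At the estimated depth 1 fragment on 1 kb is worth 0.0261 to 0.0287 FPKM. A pseudocount of 1 in the subunit ratios, an alternative chosen after seeing the data, kept the direction of all 9 ratios and brought the log2 difference of Pole to Pole3 from -0.78 to -0.35 and that of Pole to Pole4 from -0.83 to -0.40.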

Other observations

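In the list of origin licensing and firing, 5 genes had a mean under 1 FPKM and were outside the filtered fit: Orc1, Cdc6, Mcm10, Ticrr and Recql4. Orc1 and Cdc6 are described after their values were seen. Orc1, the largest subunit of the origin recognition complex, averaged 0.0989 ± 0.0508 FPKM with LPS-MCM against 0.421 ± 0.0666 with Hemin-MCM (SD, 3 libraries per group). Cdc6, which loads the helicase together with Cdt1, averaged 0.326 ± 0.0152 FPKM against 0.824 ± 0.114 FPKM. Every LPS-MCM library was below every Hemin-MCM library for both genes. In limma's fit with no filter on low values, Orc1 (-0.37 ± 0.05, adjusted p = 0.00459) and Cdc6 (-0.46 ± 0.05, adjusted p = 0.00268) were lower, as were Ticrr and Recql4, and Mcm10 did not pass (adjusted p = 0.0596). At these levels few fragments lie behind a value.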
